A study of Rattus norvegicus with 28 samples.

Results

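The oxidative stress defence genes described here are Sod1 (ENSRNOG00000002115), Sod2 (ENSRNOG00000019048), Cat (ENSRNOG00000008364), Hmox1 (ENSRNOG00000014117), Nfe2l2 (ENSRNOG00000001548) and Nqo1 (ENSRNOG00000012772), 6 of the 26405 Ensembl gene identifiers counted in rat orbitofrontal cortex. They were chosen by name for their role, with earlier results of these data known, and all 6 passed the filter on low counts. The cortex came from Sprague Dawley rats that had self-administered methamphetamine (meth) or saline through an intravenous line and were killed on withdrawal day 2 or day 35. The 4 groups were saline and meth at each day. Each had 4 RNA-seq libraries, and each library pooled tissue punches of 2 rats, so a replicate is a pool of animals. The labels call the times short and long, and the days come from the series' design text. A punch holds neurons, glia and vessels together, so fewer cells of a type and less RNA per cell cannot be told apart. The identifiers come without names, and the 6 members were paired with names by the rule that chose them. Markers of the tissue and of other cell types, and other genes of the pathway, are not analysed here.

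Meth drives dopamine out of nerve endings, and the breakdown of dopamine gives superoxide, hydrogen peroxide and reactive quinones. Superoxide dismutases turn superoxide into hydrogen peroxide, Sod1 in the cytosol and Sod2 in mitochondria, and catalase (Cat), a peroxisomal enzyme, breaks hydrogen peroxide down to water and oxygen. Nfe2l2 encodes Nrf2, a transcription factor that is held in the cytosol and degraded until oxidants or electrophiles release it. Nrf2 then enters the nucleus and binds antioxidant response elements of genes such as Nqo1, which encodes a quinone reductase, and Hmox1, which encodes an inducible enzyme that breaks down heme. Much of Nrf2's control acts on the protein, which RNA-seq does not measure.

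RefSeq promoter sequences (build GRCr8) were matched by symbol for 5 of the 6 genes and not for Hmox1. The 250 bases before the annotated start are shown for Cat, Nqo1 and Nfe2l2, the members whose meth and saline libraries did not overlap at day 35. All 3 lie on the minus strand and are written 5′ to 3′ along the gene. Cat lies at chr3:110329527-110329776, Nqo1 at chr19:52220268-52220517 and Nfe2l2 at chr3:81029000-81029249. Capitals mark matches, on either strand, to the antioxidant response element core TGACNNNGC, the GC box GGGCGG, the CCAAT box and the TATA motif TATAAA.
Cat: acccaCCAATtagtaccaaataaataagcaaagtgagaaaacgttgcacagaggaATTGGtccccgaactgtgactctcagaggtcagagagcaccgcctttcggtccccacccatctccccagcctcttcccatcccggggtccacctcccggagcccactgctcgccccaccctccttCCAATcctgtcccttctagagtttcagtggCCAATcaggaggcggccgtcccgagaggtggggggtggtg
Nqo1: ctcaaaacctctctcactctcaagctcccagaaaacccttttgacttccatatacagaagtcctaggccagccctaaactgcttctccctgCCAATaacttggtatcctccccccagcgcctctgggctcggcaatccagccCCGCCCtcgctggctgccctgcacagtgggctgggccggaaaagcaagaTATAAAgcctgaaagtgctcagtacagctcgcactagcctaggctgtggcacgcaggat
Nfe2l2: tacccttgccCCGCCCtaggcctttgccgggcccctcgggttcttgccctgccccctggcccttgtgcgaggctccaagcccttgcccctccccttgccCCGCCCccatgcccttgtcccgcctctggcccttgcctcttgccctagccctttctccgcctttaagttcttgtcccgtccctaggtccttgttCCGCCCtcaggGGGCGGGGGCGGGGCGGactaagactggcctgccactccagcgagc
The Cat window held 4 CCAAT matches and no other motif searched, and 34% of 33469 promoter windows of this length held at least 1 CCAAT. The Nfe2l2 window held 6 GGGCGG matches, 2 of which share a base, and 30.5% of windows held at least 1. The share of windows with this many CCAAT or GGGCGG matches was not computed. The Nqo1 window held 1 TATAAA, 1 CCAAT and 1 GGGCGG match, with TATAAA in 12.9% of windows. Sod1 held 1 match each to the same 3 motifs. Of the 5 windows, that of Sod2 alone held the antioxidant response element core, once, on the opposite strand, 27 to 35 bases before the start, and 10.1% of all windows held it. The 5 windows had 56.4 to 71.6% G and C, against a median of 51.2% over all windows. The GC, CCAAT and TATA motifs were picked after the promoters were seen. A match describes letters in this window and shows no binding. Sequence outside the 250 bases was not searched, so a window without a match does not show that the gene lacks the element.

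Libraries held 20.33 to 48.47 M gene counts (M, mega), with the day 2 saline group the shallowest (20.33 to 23.54 M). Levels are CPM, the reads of a gene per M gene counts of its library after TMM scaling, and differences come from edgeR's quasi-likelihood model over all 16 libraries and 15413 genes. A gene passed where its p, adjusted by the Benjamini-Hochberg method over all of them, was under 0.05. CPM are not divided by transcript length, so they are compared within a gene only. None of the 6 members passed in any of the 6 comparisons with edgeR. The share of all genes called was 0.11% between meth and saline at day 2, 0% at day 35, 0.013% for the meth effect averaged over the days, 0.136% for the difference of that effect between days, 1.83% between the days in meth rats and 0% between the days in saline rats. At an unadjusted p under 0.05, 1 member was counted at day 2 (10.5% of all genes), 3 at day 35 (5.85%), 3 in the average (6.89%), 1 in the difference of effects (9.62%), 1 between days in meth rats (16%) and 0 in saline rats (8.68%).

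**Figure D1:**
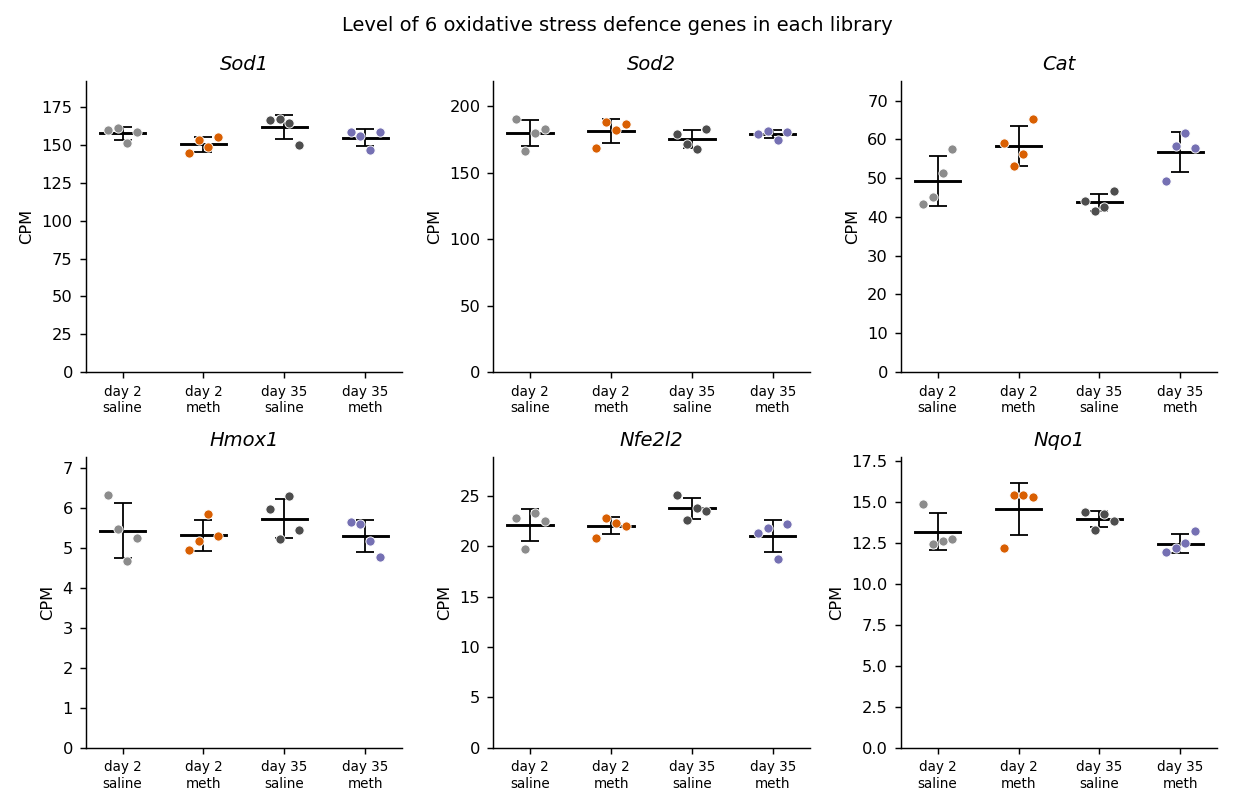
Level of each of the 6 genes in CPM (y axis, from 0) in each library (points, in the order of sequencing lanes 1 to 4) of the 4 groups (x axis), with the group mean (thick bar) and SD (error bar, n = 4). Cat lies between 41.5 and 46.8 CPM in day 35 saline and between 49.3 and 61.6 CPM in day 35 meth libraries, and the 2 superoxide dismutases lie close to level across all groups.

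Catalase had the largest difference of the 6 between meth and saline rats, and its mean was higher in meth at each day, although no test of it passed in edgeR. At day 35, Cat stood at 49.3, 58.3, 61.6 and 57.7 CPM in the meth libraries and at 44.0, 41.5, 42.7 and 46.8 CPM in the saline libraries. Every meth library lay above every saline library, a separation in this direction that 1.61% of all genes showed. The meth mean was 56.7 ± 5.24 CPM and the saline mean 43.8 ± 2.28 CPM (SD, n = 4 each), a fold change of 1.30 with a 95% interval of 1.14 to 1.47. On the log2 scale the difference was 0.37 (SE 0.087), rank 11 by p of 15413 genes, and it did not pass the adjustment (edgeR adjusted p = 0.54). DESeq2, the only alternative of 25 to call it, gave a log2 fold change of 0.37 and an adjusted p of 0.045, and called 5 genes in all (0.0324% of those tested). The adjusted p over the 25 alternatives ran from 0.045 to 1.0, and the log2 fold change from 0.33 to 0.44.

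At day 2, Cat stood at 59.1, 53.2, 56.1 and 65.3 CPM in the meth libraries and at 43.2, 45.1, 51.4 and 57.4 CPM in the saline libraries. The groups overlapped, because day 2 saline replicate 16 (57.4 CPM) lay above 2 of the meth libraries. The means were 58.4 ± 5.16 and 49.3 ± 6.47 CPM (SD, n = 4 each), a fold change of 1.18 with a 95% interval of 1.04 to 1.35 (log2 fold change 0.24, SE 0.089, edgeR adjusted p = 0.33). The meth effect on Cat was not shown to differ between the days (difference of log2 effects 0.13, 95% interval -0.13 to 0.40, edgeR adjusted p = 0.80). This difference ranged from 0.054 without day 2 saline replicate 16 to 0.19 without day 2 meth replicate 4 when 1 library was left out, and was 0.078 when thinned. Averaged over the days, Cat was 1.24-fold higher in meth rats, with a 95% interval of 1.13 to 1.36. That average had a log2 value of 0.31 (SE 0.062) and rank 9 by p among all genes, and missed the threshold (edgeR adjusted p = 0.27). With DESeq2 it passed (adjusted p = 0.0014), among 29 genes called (0.289% of those tested). Over 24 alternatives the adjusted p of this average ran from 0.0014 to 0.51. The 2 comparisons of meth with saline share no library, but both come from 1 model and the same lanes. Each group carries 1 index, so index and group cannot be told apart in either.

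Each sequencing lane held 1 library of every group, which allows meth and saline to be compared inside a lane. Cat was higher in the meth library in 4 of 4 lanes at day 2, by 0.13 to 0.45 on the log2 scale. At day 35 the differences were 0.16 to 0.53, and 4 of 4 followed from groups that did not overlap. Sod1 also kept to 1 side at day 2, lower in the meth library in 4 of 4 lanes (log2 difference -0.14 to -0.027). Deviations of same-lane libraries from their group means correlated by 0.012 on average. The share of all genes with 4 of 4 lanes on 1 side was not computed. Cat was also the most variable member beside genes of its own level. Its within-group SD of log2 CPM was 0.14, above that of 96.2% of the 500 genes nearest in level. The group means accounted for 66.3% of the variance of Cat over the 16 libraries, against a median of 23.3% over all genes. Between the days, Cat did not pass in meth rats (log2 fold change -0.04, SE 0.086, edgeR adjusted p = 0.86) or in saline rats (-0.17, SE 0.090, edgeR adjusted p = 0.62).

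**Figure D2:**
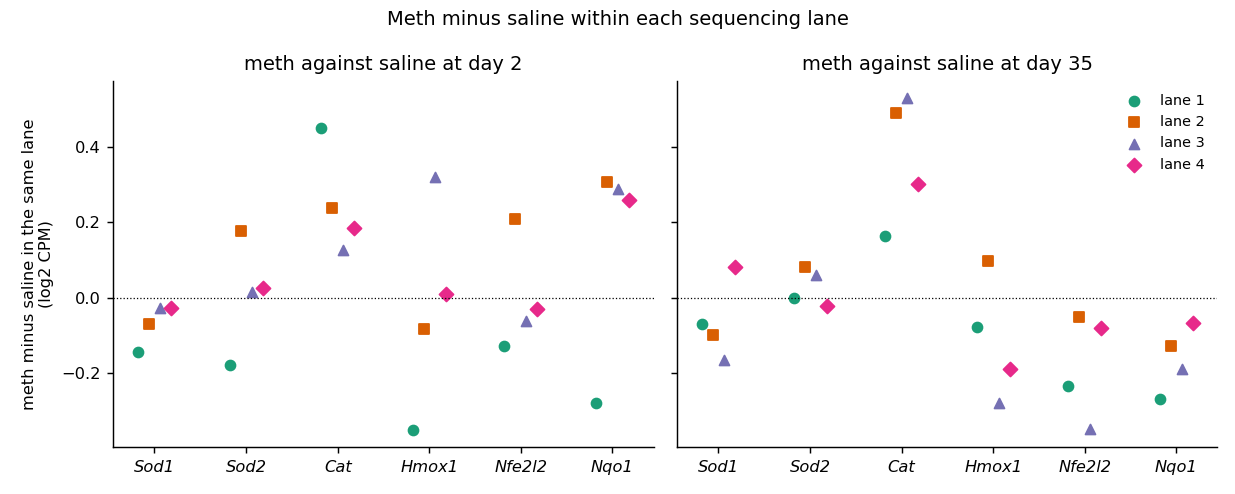
Difference in log2 CPM between the meth and the saline library of the same sequencing lane (y axis) for each of the 6 genes (x axis) at day 2 (left) and day 35 (right), 1 point a lane. All 8 Cat points lie above 0. All Sod1 points at day 2, and all Nfe2l2 and Nqo1 points at day 35, lie below 0. At day 2 the lane 1 point of Nqo1 lies at -0.28 and the others at 0.26 to 0.31. At day 35 the side of the Cat, Nfe2l2 and Nqo1 points follows from groups that did not overlap.

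The quinone reductase gene Nqo1 had its highest mean in day 2 meth rats and its lowest in day 35 meth rats. Its libraries stood at 12.2, 15.4, 15.5 and 15.3 CPM in day 2 meth, 14.9, 12.5, 12.7 and 12.8 CPM in day 2 saline, 11.9, 12.2, 12.5 and 13.2 CPM in day 35 meth, and 14.4, 13.3, 14.3 and 13.9 CPM in day 35 saline. At day 2, 3 meth libraries lay close together and above all saline libraries, while day 2 meth replicate 1 lay below all of them. The saline library of the same lane, day 2 saline replicate 13, lay apart from its group in the opposite direction. These libraries had the fewest gene counts of their groups, 24.97 and 20.33 M. With all libraries thinned to the smallest, the log2 fold change of Nqo1 between meth and saline at day 2 was 0.16, against 0.16 as reported. Whether depth or another property sets these 2 libraries apart in Nqo1 was not tested.

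In meth rats Nqo1 averaged 14.6 ± 1.58 CPM at day 2 and 12.5 ± 0.566 CPM at day 35 (SD, n = 4 each), a fold change of 0.85 with a 95% interval of 0.77 to 0.94. The log2 fold change was -0.23 (SE 0.071), and it did not pass (edgeR adjusted p = 0.10). The ranges overlapped through day 2 meth replicate 1 alone. Without that library Nqo1 fell by 0.30 on the log2 scale and passed (edgeR adjusted p = 0.017), as did 1.75% of all genes. With day 2 saline replicate 13 left out as well, the log2 fold change was -0.30 (edgeR adjusted p = 0.0064), and 1.9% of all genes passed. Over all 25 alternatives the adjusted p ran from 0.0064 to 0.25, and these 2 alternatives were the ones to pass. The pair was taken from an earlier look at whole libraries of these data, and its own Nqo1 values run against those of its groups, so passing without the pair, or without its meth library alone, is no independent support for a change of Nqo1. In saline rats the log2 fold change between the days was 0.09 (SE 0.074, edgeR adjusted p = 0.79).

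The sign of the meth effect on Nqo1 was opposite at the 2 days. At day 2 the log2 fold change was 0.16 (95% interval -0.00067 to 0.31, edgeR adjusted p = 0.48), and at day 35 it was -0.16 (95% interval -0.31 to -0.02, edgeR adjusted p = 0.80). At day 35 the means were 12.5 ± 0.566 CPM in the meth group and 14.0 ± 0.5003 CPM in the saline group (SD, n = 4 each), and every meth library lay below every saline library, as 1.85% of all genes did. The nearest libraries there were 13.2 CPM in meth and 13.3 CPM in saline. The difference of the effects was -0.32 on the log2 scale (SE 0.10, 95% interval -0.54 to -0.10) and did not pass (edgeR adjusted p = 0.30). With both of the day 2 libraries of lane 1 (meth replicate 1, saline replicate 13) left out it was -0.45 and passed (edgeR adjusted p = 0.030), as did 0.084% of all genes. The Nqo1 values of this pair run against those of its groups, so here too that pass is no independent support. Without any single library it did not pass (lowest edgeR adjusted p = 0.098), and over the 24 alternatives the adjusted p ran from 0.030 to 0.50. The average effect over the days was close to 0 (log2 value -0.0046, 95% interval -0.11 to 0.10).

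Nfe2l2, the gene of the transcription factor Nrf2, was close to equal between meth and saline rats at day 2 and had lower values in meth at day 35, without passing the test. At day 2 the libraries stood at 20.9, 22.9, 22.4 and 22.1 CPM in meth and at 22.8, 19.8, 23.4 and 22.5 CPM in saline. The 2 ranges lay on top of each other (log2 fold change -0.0029, 95% interval -0.13 to 0.13, edgeR adjusted p = 0.99). At day 35 they stood at 21.4, 21.8, 18.7 and 22.3 CPM in meth and at 25.1, 22.6, 23.9 and 23.5 CPM in saline. All 4 meth libraries lay below all 4 saline libraries there, with 22.3 and 22.6 CPM as the nearest values. The means were 21.0 ± 1.59 and 23.8 ± 1.05 CPM (SD, n = 4 each), a fold change of 0.88 with a 95% interval of 0.81 to 0.96 (log2 fold change -0.18, SE 0.059, edgeR adjusted p = 0.72). Because the groups did not overlap, the day 35 meth library was lower in every lane, by a log2 difference of -0.35 to -0.05. Averaged over the days the log2 value was -0.09 (95% interval -0.18 to -0.0019, edgeR adjusted p = 0.71). The difference of the meth effects between the days was -0.18 (95% interval -0.35 to 0.0019, edgeR adjusted p = 0.53), and no alternative called Nfe2l2 in any comparison.

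With Cat, Nfe2l2 and Nqo1, 3 of the 6 members had meth and saline libraries that did not overlap at day 35, where 3.46% of all genes did not, and 0 of 6 at day 2 (5.45%). The direction differed among these 3, with Cat higher and the others lower in meth. The 6 were chosen with earlier results of these data known, so these counts describe the members and test nothing. The median log2 fold change of the 6 members at day 35 was -0.09, against -0.0013 over all genes, and the median absolute value was 0.14 against 0.050. At day 2 the median absolute value was 0.046 against 0.063. Between the days, 0 of 6 members had groups that did not overlap in meth rats (11.4% of all genes) and 0 of 6 in saline rats (3.86%). The day 35 meth libraries enter both the comparison with saline and that between days in meth rats, so those values are not independent.

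**Figure D3:**
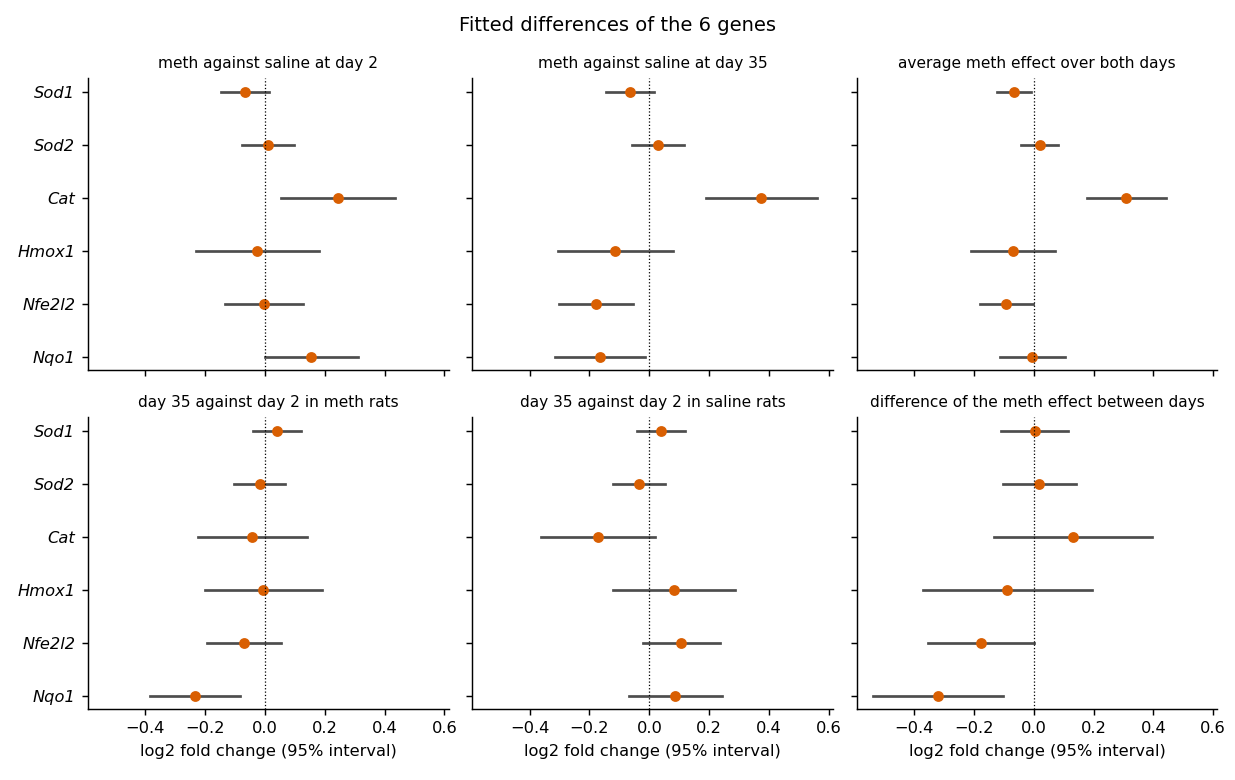
Fitted log2 fold change (point) and 95% interval (line) of each of the 6 genes (y axis) in the 6 comparisons (panels), without adjustment for the number of genes tested. The Cat intervals lie above 0 at day 2, at day 35 and in the average, and the Nqo1 intervals lie below 0 at day 35, between days in meth rats and in the difference of effects. The Nfe2l2 intervals at day 35 and in the average, and the Sod1 interval in the average, also lie below 0.

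The superoxide dismutases had the narrowest ranges of log2 fold change of the 6 over the 4 comparisons of 2 groups. These were -0.04 to 0.03 for Sod2 and -0.07 to 0.04 for Sod1. Between meth and saline at day 2, Hmox1 (-0.025) and Nfe2l2 (-0.0029) differed less than Sod1 (-0.07). Between days in meth rats Hmox1 (-0.0061) differed less than either dismutase. Sod2, the mitochondrial enzyme, ranged from 166.5 to 190.6 CPM over the 16 libraries, with group means of 175.6 to 181.3 CPM. Over the 4 comparisons of 2 groups the 95% intervals of its change stayed between -8.15 and 8.27%, and the edgeR adjusted p was 0.87 to 0.97. Sod1, the cytosolic enzyme, ranged from 144.7 to 167.2 CPM. It stood at 144.7, 153.5, 148.4 and 155.4 CPM in day 2 meth and at 159.9, 161.1, 151.3 and 158.4 CPM in day 2 saline libraries, and at 158.5, 156.2, 146.5 and 158.3 CPM in day 35 meth and 166.4, 167.2, 164.2 and 149.7 CPM in day 35 saline libraries. Day 35 saline replicate 12 lay below the rest of its group, and the meth and saline ranges overlapped at each day. The meth effect on Sod1 averaged over the days was -0.07 on the log2 scale (SE 0.027, 95% interval of the change -8.09 to -0.606%, edgeR adjusted p = 0.67). Its 95% intervals over the 4 comparisons of 2 groups stayed between -9.69 and 8.70%, so larger changes of either dismutase lay outside them.

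Hmox1, the inducible heme oxygenase gene, was the least sequenced member, with 110 to 287 counts a library. It stood at 4.95 to 5.84 CPM in day 2 meth, 4.67 to 6.33 CPM in day 2 saline, 4.77 to 5.64 CPM in day 35 meth and 5.23 to 6.29 CPM in day 35 saline libraries, and all 4 ranges overlapped. The group means ran from 5.30 to 5.73 CPM, and the log2 fold changes of the 4 comparisons of 2 groups from -0.11 to 0.08 (edgeR adjusted p from 0.87 to 0.98). The 95% interval of its change between meth and saline was -14.8 to 13.4% at day 2 and -19.1 to 5.67% at day 35. The day 35 log2 fold change of -0.11 moved to -0.20 when all libraries were thinned to the smallest, to -0.068 without day 35 meth replicate 8 and to -0.068 without day 35 saline replicate 11. Thinning was a single random draw, and the spread between draws was not measured.

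**Figure D4:**
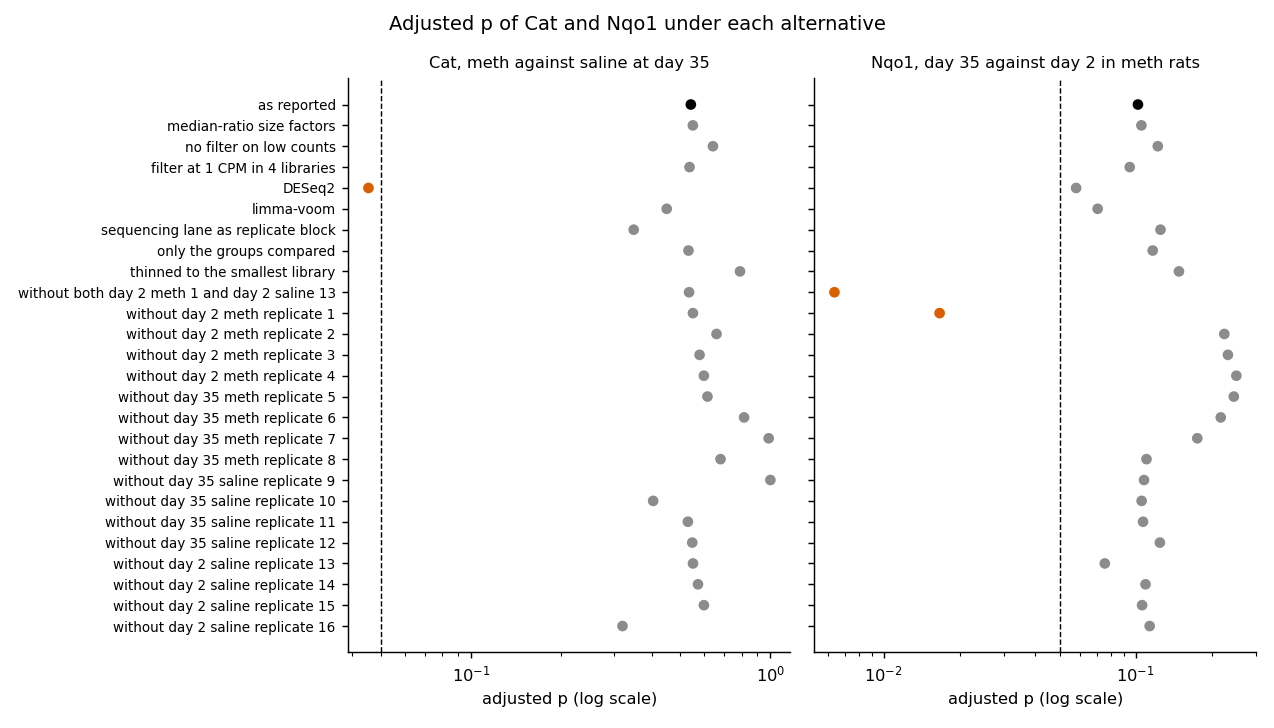
Adjusted p (x axis, log scale) of Cat between meth and saline at day 35 (left) and of Nqo1 between day 35 and day 2 in meth rats (right) as reported (black) and under each of 25 alternatives (rows; orange under the threshold of 0.05, dashed line). Cat passes with DESeq2 alone, and Nqo1 passes without day 2 meth replicate 1, with or without day 2 saline replicate 13.

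Whether the members varied together between pools of the same group was examined by pairs. Deviations of log2 CPM from the group means were correlated over the 16 libraries for all 15 pairs of members, with permutation tests that exchanged libraries within groups. The highest values were found for Sod2 with Nqo1 (Pearson r = 0.69, permutation p = 0.022, adjusted 0.16; Spearman rho = 0.64, permutation p = 0.020, adjusted 0.30) and for Sod2 with Nfe2l2 (r = 0.68, permutation p = 0.0063, adjusted 0.095; rho = 0.50, permutation p = 0.054, adjusted 0.40). None of the 15 passed after adjustment over the pairs, and no test of the set was run. The r was positive in 10 of 10 pairs without Cat (0.060 to 0.69) and negative in 4 of the 5 pairs with Cat (-0.44 to 0.090). A split of the pairs at Cat was not planned beforehand, so these counts describe the pairs and test nothing. The sign was not firm in every pair. Hmox1 with Nfe2l2 had a Spearman rho of -0.038, and Cat with Nfe2l2 an r of -0.013. Without the 2 libraries farthest out in Sod1, the r of Sod1 with Nfe2l2 was -0.035. The pairs share genes, and the share of positive pairs among other genes was not computed. Without the 2 libraries farthest out in Sod2, day 2 meth replicate 1 and day 2 saline replicate 14, the r of Sod2 with Nqo1 and with Nfe2l2 fell to 0.46 and 0.45. Deviations of Sod2 and Nqo1 also correlated with those of log2 library depth, with r of 0.42 and 0.38, and the part of depth in the 2 pair values was not tested.

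For likeness in level over the 16 libraries, each member was compared with 13560 genes at a mean of 1 CPM or more, as a description. Differences between groups were part of the correlation. Group means ordered like those of the member therefore come with the choice of the gene and are no further evidence. The gene most like Cat was ENSRNOG00000006206 (r = 0.85), at 84.7 ± 2.00 and 85.0 ± 3.65 CPM in day 2 and day 35 meth and at 81.2 ± 2.79 and 80.4 ± 2.33 CPM in day 2 and day 35 saline rats (SD, n = 4 each). The gene most like Nqo1 was ENSRNOG00000014658 (r = 0.86), with 18.8 ± 1.83 and 16.4 ± 0.601 CPM in day 2 and day 35 meth and 17.2 ± 1.48 and 18.1 ± 1.03 CPM in day 2 and day 35 saline rats. Nfe2l2 was the member most like Nqo1 (r = 0.52), which ranked 773 among the genes compared with Nqo1.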

How the data were processed

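Poly(A) RNA of 16 orbitofrontal libraries was sequenced on an Illumina HiSeq, per the labels' protocols; the 12 central amygdala samples are not analysed here. The deposited files hold unnormalized read counts for each gene, made by the authors with TopHat and HTSeq on build rn4, per the submitters' processing notes; their versions, the annotation and the strand setting are not given. The 5 HTSeq summary rows, 31.1 to 32.6% of all reads, were left out. Genes were filtered with filterByExpr and scaled with TMM, and 1 model of 4 group means was fitted in edgeR 4.0.16 under R 4.3.3 (glmQLFit with robust set, then glmQLFTest). SE is the log2 fold change over the square root of F. Alternatives used DESeq2 1.42.0, limma-voom 3.58.1, median-ratio size factors, other filters, fits of the compared groups, thinning, lane as replicate block, and fits without 1 or 2 libraries. Thinning drew counts at random a single time. Log2 CPM used a prior count of 2.

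Same-lane libraries are paired by the lane in the labels; their deviations correlated by 0.012 on average (-0.17 to 0.16, 24 pairs). No 2 libraries of a group agreed within counting noise (chi-square 5.19 to 17.0 times its degrees of freedom over 24 pairs). Each group carries 1 index, so index and group cannot be told apart. The script was tested on simulated data, for the signs of planted changes and for false calls. The share of planted changes that it called is not reported here. The members, lists and alternatives were chosen with earlier results of these data known, and the GC, CCAAT and TATA motifs after the promoters were seen. The rule for named genes took the 6 members throughout, the most similar gene of each by correlation, and lists of related genes and cell type markers by symbol. Those lists could not be run, since 0 identifiers matched the gene table.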

Additional observations from a re-analysis of the deposited data

Results flagged for a closer look

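In 3 of 24 sets of 4 libraries (6 members in 4 groups) 1 library stood apart from the other 3 by Dixon's criterion, which chance meets in about 1 of 20 sets. Sod1 was low in day 35 saline replicate 12, at 149.7 CPM against 164.2 to 167.2 CPM in the rest of the group. Nqo1 was high in day 2 saline replicate 13, at 14.9 CPM against 12.5 to 12.8 CPM, and low in day 2 meth replicate 1, at 12.2 CPM against 15.3 to 15.5 CPM.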

How the results depend on the processing

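Of 36 values (6 members in 6 comparisons), none was called as reported. The number of members called was 1 with DESeq2 at day 35 and in the average meth effect (Cat), 1 with both day 2 libraries of lane 1 (meth replicate 1, saline replicate 13) left out for the difference of effects and between days in meth rats (Nqo1), and 0 to 1 between days in meth rats with 1 library left out. With lane as replicate block no member was called, and the log2 value of the average effect on Cat was 0.31 (edgeR adjusted p = 0.051). Counts over all genes moved more: DESeq2 called 115 genes against 17 at day 2, 5 against 0 at day 35, 83 against 21 for the difference of effects, 29 against 2 for the average, and 554 against 282 and 37 against 0 between days in meth and saline rats. With 1 library left out these counts were 6 to 21, 0 to 1, 0 to 17, 1 to 4, 104 to 305 and 0 to 2.

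Signs changed only among values close to 0, in 38 of 888 alternative values. At day 2, Nfe2l2 was 0.0027 with limma-voom, 0.016 thinned and 0.032 without those 2 libraries, where Hmox1 was 0.079. In that fit the difference of effects was -0.019 for Sod1 and -0.039 for Sod2, and the average for Nqo1 was 0.059. Thinned, the average for Nqo1 was 0.0038, and Hmox1 between days in meth rats 0.010. With 1 library left out, day 2 values ran from -0.057 to 0.020 (Nfe2l2), -0.029 to 0.037 (Sod2) and -0.096 to 0.047 (Hmox1); differences of effects from -0.029 to 0.032 (Sod1) and -0.0079 to 0.058 (Sod2); averages from -0.020 to 0.027 (Nqo1) and -0.00020 to 0.033 (Sod2). Between days in meth rats they ran from -0.046 to 0.0038 (Sod2), -0.038 to 0.044 (Hmox1) and -0.082 to 0.021 (Cat). The cause was not tested. Thinned, the average for Hmox1 was -0.15, against -0.07 as reported, and it was -0.033 without day 2 saline replicate 13 and -0.017 without both day 2 libraries of lane 1. Hmox1 had the fewest counts of the 6, 110 to 287 a library, and thinning was a single random draw.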
